A study of Mus musculus with 9 samples.

Results

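The genes described here are 9 genes that clear glutamate from the extracellular space, exchange it for cystine, and recycle it through glutamine: Slc1a1, Slc1a2, Slc1a3, Slc7a11, Slc3a2, Glul, Glud1, Slc38a1 and Slc38a3. They were chosen by gene symbol, and all 9 were present among the 21423 genes of the expression table of mouse nucleus accumbens. All 9 passed the filter on low values, which asked for 1 RPKM or more on average across 9 lanes, as did 14051 genes in all. RPKM counts the reads on a gene relative to the length of its model and to the reads of the lane. Levels can therefore be set roughly side by side between genes. Ratios between genes still depend on the gene models used, and they shift between libraries where differences follow gene length, as described below.

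The study compared 3 groups of adult male C57BL/6 mice, 2 to 5 months old. The withdrawal group had intraperitoneal cocaine daily for 7 days and was then left in the home cage for 8 days, the cocaine group had the same 7 days of injections and was killed 24 h after the last one, and the saline group had saline at 10 ml/kg for 7 days and was killed 24 h after the last injection. The labels give cocaine at 10 or 20 mg/kg and do not tie a dose to a library. Equal amounts of RNA from accumbens punches of 8 mice were pooled per group, each pool gave 1 poly(A) library, and every library was run in 3 lanes. The withdrawal library had no saline counterpart harvested at 8 days, so time since injection and drug history cannot be told apart in its comparison with saline.

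Glutamate released at synapses is removed by sodium-coupled transporters of the SLC1 family, most of them in the membranes of astrocytes. Astrocytes turn glutamate into glutamine, which leaves them through system N transporters and enters neurons through system A transporters, where it can be turned back into glutamate. A separate exchanger, system xc-, takes up cystine for glutathione synthesis and releases glutamate outside synapses, and in rodents the accumbens is a region where both uptake and exchange have been studied after cocaine.

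The exchanger is a dimer of a transporting light chain, encoded by Slc7a11, and a heavy chain shared with other transporters, encoded by Slc3a2. The 250 bases before the RefSeq transcription start of both genes are shown because these genes encode the partner subunits of 1 exchanger. The build is GRCm38.p6, which is not that of the deposited files; the Slc7a11 sequence is chr3:50443614-50443863 and the Slc3a2 sequence is chr19:8713898-8714147, both on the minus strand and written 5′ to 3′. Capitals mark the amino acid response core, TGATGCAA or its reverse complement, a motif known from genes that respond to amino acid shortage.
Slc7a11: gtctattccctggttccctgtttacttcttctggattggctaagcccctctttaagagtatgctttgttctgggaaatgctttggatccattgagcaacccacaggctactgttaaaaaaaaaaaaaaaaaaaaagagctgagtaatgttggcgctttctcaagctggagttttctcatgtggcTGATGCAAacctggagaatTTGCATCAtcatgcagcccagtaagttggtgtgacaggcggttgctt
Slc3a2: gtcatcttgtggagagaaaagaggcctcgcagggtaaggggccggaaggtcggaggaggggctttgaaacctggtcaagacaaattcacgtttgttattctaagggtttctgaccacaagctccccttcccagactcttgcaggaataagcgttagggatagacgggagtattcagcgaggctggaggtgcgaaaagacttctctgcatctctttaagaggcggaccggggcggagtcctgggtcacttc

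Slc7a11 held this core in both orientations, at positions beginning 66 and 47 bases before the start, and the matches did not overlap. Of 32851 RefSeq mouse promoters searched over the same 250 bases on both strands, 0.791% held the core and 0.00609% held it 2 or more times. Slc3a2 had no match to this core, to the cAMP response element TGACGTCA (in 1.55% of promoters), to the AP-1 site TGANTCA (6.75%) or to the antioxidant response core TGACNNNGC (10.2%). The promoter table held 7 of the 9 genes, all except Slc38a1 and Slc38a3, and Slc7a11 was the only one of the 7 with a match to any of these motifs. The bases that follow the RefSeq start lay in an annotated GENCODE transcript for Slc7a11 and not for Slc3a2. A match describes the sequence and is not evidence of binding.

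Library totals were 19452882 reads for withdrawal, 24219333 for cocaine and 26006605 for saline, with lane totals from 5546362 to 12026754. Lanes are repeat runs of 1 library, so each SD and SE given here covers sequencing error only, each group has an n of 1 library, and no p-values are given. A gene was called when the mean log2(RPKM + 0.5) of 2 libraries was 1.5 times apart or more and their lanes did not overlap; a fold on this scale understates the change of genes with low values. Genes of medium spiny neurons, the principal cells of the accumbens, were abundant: Penk averaged 840 RPKM in withdrawal, 775 RPKM in cocaine and 1018 RPKM in saline, and Ppp1r1b averaged 498, 389 and 655 RPKM in the same order of libraries. In pooled bulk tissue, fewer cells of a type and less RNA per cell cannot be told apart.

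The glutamate transporter mRNAs Slc1a2 and Slc1a3, and the neuronal transporter Slc1a1, were 1.18 to 1.21 times as high in cocaine as in saline, and none reached 1.5 times. Slc1a2 encodes GLT-1, the main glutamate transporter of forebrain astrocytes. It stood at 341, 344 and 346 RPKM in the 3 withdrawal lanes, at 340, 339 and 337 RPKM in the cocaine lanes, and at 282, 272 and 285 RPKM in the saline lanes, rank 134 of the 14051 genes. Every withdrawal and cocaine lane lay above every saline lane. The difference was 0.28 ± 0.021 (log2, SE over lanes) for cocaine against saline and 0.30 ± 0.021 for withdrawal against saline, which is 1.21 and 1.23 times. Withdrawal and cocaine differed by 0.021 ± 0.0071, the smallest difference among the 9 genes in that comparison.

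Slc1a3 encodes GLAST, the other transporter of astrocytes. Its lanes read 76.5, 81.5 and 78.3 RPKM in withdrawal, 85.3, 86.1 and 87.0 RPKM in cocaine, and 72.7, 72.0 and 73.7 RPKM in saline. The 3 libraries did not overlap, with cocaine highest, withdrawal between and saline lowest. The log2 differences were 0.24 ± 0.013 for cocaine against saline, 0.11 ± 0.028 for withdrawal against saline, and -0.13 ± 0.028 for withdrawal against cocaine. The ratio of Slc1a2 to Slc1a3 was 4.36 in withdrawal, 3.93 in cocaine and 3.84 in saline.

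Slc1a1 encodes EAAC1, a transporter mostly of neurons that also carries cysteine. It was read at 16.5, 17.7 and 16.1 RPKM in withdrawal, 16.8, 17.5 and 14.6 RPKM in cocaine, and 14.3, 12.0 and 14.3 RPKM in saline. All withdrawal and cocaine lanes lay above the saline lanes, the lowest cocaine lane at 14.6 RPKM and the highest saline lane at 14.3 RPKM, and withdrawal and cocaine overlapped. Its log2 differences were 0.30 ± 0.091 for withdrawal against saline and 0.26 ± 0.11 for cocaine against saline. Levels of Slc1a1 are uncertain where another gene lies across it: 31.2% of the 37-base words of its annotated transcripts also belong to 4430402I18Rik, a gene on the opposite strand at a mean of 2.39 RPKM, and no stranded protocol is described. Slc1a2 was 20.5 times Slc1a1 in withdrawal, 20.8 times in cocaine and 20.6 times in saline.

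As deposited, the exchanger's light chain was higher and its heavy chain lower in cocaine than in saline; set against genes of like length, both lay below 0 (Slc7a11 -0.052, Slc3a2 -0.10). Slc7a11, the light chain xCT that carries cystine and glutamate, was the lowest of the 9 genes, at 4.86, 5.02 and 4.68 RPKM in withdrawal, 5.54, 5.14 and 5.22 RPKM in cocaine, and 4.48, 4.33 and 4.31 RPKM in saline. The lanes of the 3 libraries did not overlap, with cocaine highest and saline lowest. The values imply 1060 reads in the withdrawal library, 1443 in cocaine and 1284 in saline, and 303 in the lane with fewest. Log2 differences were 0.25 ± 0.034 for cocaine against saline, 0.14 ± 0.031 for withdrawal against saline and -0.12 ± 0.040 for withdrawal against cocaine. Of the 37-base words of Slc7a11, 4.58% also belong to other annotated genes, 1.24% to Tuba1a, which averaged 798 RPKM. How such reads were assigned is not given in the sources used here.

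Slc3a2 encodes 4F2hc (CD98), the heavy chain that brings xCT and several amino acid transporters to the membrane. It was read at 51.5, 48.9 and 45.4 RPKM in withdrawal, 46.2, 40.0 and 42.3 RPKM in cocaine, and 49.6, 51.0 and 51.0 RPKM in saline. The cocaine lanes all lay below the saline lanes, while the withdrawal lanes overlapped both other libraries. Cocaine against saline gave -0.24 ± 0.061, withdrawal against saline -0.058 ± 0.054, and withdrawal against cocaine 0.18 ± 0.079. Of its 37-base words 7.77% also belong to other annotated genes, 2.76% to Snrpc, at a mean of 35.0 RPKM. As deposited, and not set against genes of like length, the heavy chain exceeded the light chain 10.0 times in withdrawal, 8.08 times in cocaine and 11.6 times in saline.

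Of the other light chains that pair with Slc3a2, 4 of 5 passed the filter and none was called in any comparison. Slc7a5, the light chain of the large neutral amino acid carrier LAT1, stood at 19.7, 18.9 and 15.0 RPKM in withdrawal, 17.9, 17.4 and 17.3 RPKM in cocaine, and 14.5, 17.0 and 13.8 RPKM in saline. Its log2 difference was 0.21 ± 0.090 for cocaine against saline, with lanes apart, and 0.23 ± 0.15 for withdrawal against saline, with lanes overlapping.

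**Figure D1:**
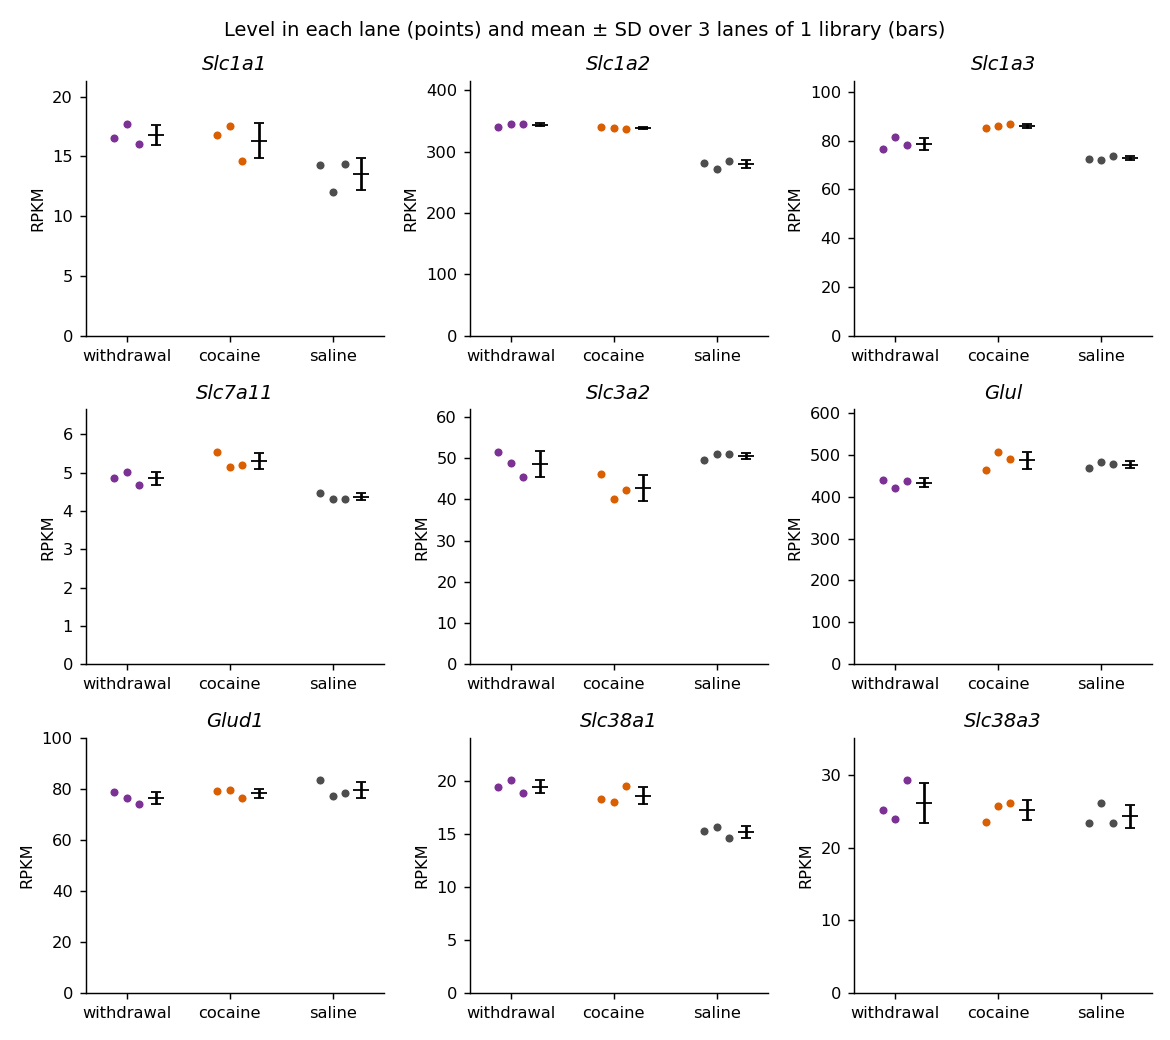
RPKM (vertical axes, from 0) of each of the 9 genes in the 3 lanes of the withdrawal, cocaine and saline libraries, with the mean ± SD over lanes to the right of the points. Slc1a1, Slc1a2, Slc1a3, Slc7a11 and Slc38a1 had every withdrawal and cocaine lane above the saline lanes, Slc3a2 was lowest in cocaine, and Glul was lowest in withdrawal.

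As deposited, the enzymes overlapped between cocaine and saline, and glutamine synthetase was lowest in withdrawal. Glul encodes glutamine synthetase, the astrocyte enzyme that joins ammonia to glutamate, and was the most abundant of the 9 genes, rank 69. It stood at 439, 421 and 438 RPKM in withdrawal, 464, 506 and 488 RPKM in cocaine, and 468, 483 and 477 RPKM in saline. All withdrawal lanes lay below all cocaine and saline lanes, and cocaine and saline overlapped. The log2 difference was -0.14 ± 0.024 for withdrawal against saline, -0.17 ± 0.041 for withdrawal against cocaine and 0.030 ± 0.039 for cocaine against saline. Cocaine lanes of Glul lay above the saline lanes after centring by gene length (0.12), scaling to the 75th percentile (0.10) and without cocaine lane 1 (0.063). Its level is uncertain to the extent that 19.5% of its 37-base words also belong to other annotated genes, 13.5% to the pseudogene Glns-ps1.

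Glud1 encodes the mitochondrial glutamate dehydrogenase that turns glutamate into 2-oxoglutarate. It was read at 78.9, 76.5 and 74.1 RPKM in withdrawal, 79.4, 79.6 and 76.4 RPKM in cocaine, and 83.4, 77.3 and 78.5 RPKM in saline. The lanes of all 3 libraries overlapped. Its log2 differences were -0.022 ± 0.038 for cocaine against saline, -0.058 ± 0.042 for withdrawal against saline and -0.036 ± 0.032 for withdrawal against cocaine. Of its 37-base words 8.91% also belong to other annotated genes, 5.3% to the pseudogene Glud-ps.

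The glutamine carriers differed from each other. Slc38a1 encodes SNAT1, a system A transporter by which neurons take up glutamine, and as deposited it had the largest difference of the 9 genes against saline in both comparisons; after centring by gene length it lay at -0.016 in cocaine and 0.066 in withdrawal and no longer did. Its lanes read 19.5, 20.1 and 18.9 RPKM in withdrawal, 18.3, 18.04 and 19.5 RPKM in cocaine, and 15.3, 15.7 and 14.6 RPKM in saline. No withdrawal or cocaine lane overlapped a saline lane, and withdrawal and cocaine overlapped. The log2 difference was 0.35 ± 0.038 for withdrawal against saline (1.27 times), 0.29 ± 0.045 for cocaine against saline (1.22 times) and 0.063 ± 0.042 for withdrawal against cocaine. Slc38a1 has the longest gene model of the 9, 14484 bp. Of its 37-base words 6.8% also belong to other annotated genes, 4.84% to 4632432E15Rik.

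Slc38a3 encodes SNAT3, the system N transporter by which astrocytes release glutamine. It was read at 25.2, 24.0 and 29.3 RPKM in withdrawal, 23.6, 25.8 and 26.2 RPKM in cocaine, and 23.5, 26.2 and 23.4 RPKM in saline. Lanes overlapped in every comparison, and the log2 differences were 0.098 ± 0.10 for withdrawal against saline, 0.048 ± 0.069 for cocaine against saline and 0.050 ± 0.097 for withdrawal against cocaine. Before any centring by gene length, the ratio of Slc38a3 to Slc38a1 was 1.34 in withdrawal, 1.35 in cocaine and 1.60 in saline.

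Set together, 0 of the 9 genes were called for cocaine against saline, where 2.93% of the 14051 tested genes were called higher and 2.41% lower (411 and 338 genes, or 535 and 204 after scaling to the 75th percentile). By the overlap of lanes alone, 5 of the 9 (Slc1a1, Slc1a2, Slc1a3, Slc7a11 and Slc38a1) lay higher in cocaine, 1 (Slc3a2) lay lower, and 3 overlapped; of all tested genes 18.3% lay higher and 23.9% lower. Lanes part more easily in genes with many reads. Among the 5275 genes with at least the reads of Slc7a11, 59.2% had lanes apart in one direction or the other, against 6 of the 9 here. The median log2 difference of the 9 genes was 0.24, and that of all tested genes was -0.047.

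For withdrawal against saline, 0 of the 9 were called, where 3.96% of tested genes were called higher and 3.37% lower (557 and 473 genes, or 765 and 280 after that scaling). Lanes were apart upward for 5, Slc1a1, Slc1a2, Slc1a3, Slc7a11 and Slc38a1, and downward for 1, Glul, with 18.6% of tested genes higher and 25.6% lower, and 61.4% either way among the 5275 deeply read genes. The median was 0.11 for the 9 genes and -0.056 for all tested genes. Both comparisons use the same saline library, so an unusual saline level would enter both.

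For withdrawal against cocaine, 0 of the 9 were called, where 0.47% of tested genes were called higher and 0.548% lower. Slc1a2 had lanes apart upward and Slc1a3, Slc7a11 and Glul downward, where 8.66% of tested genes lay higher and 9.42% lower, and 24.7% either way among the deeply read genes. The lowest withdrawal lane of Slc1a2 was 340.7 RPKM and the highest cocaine lane 340.0 RPKM. Its lanes were no longer apart after scaling to the 75th percentile. The median was 0.021 for the 9 genes and -0.0074 for all tested genes, and the range ran from -0.17 for Glul to 0.18 for Slc3a2.

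**Figure D2:**
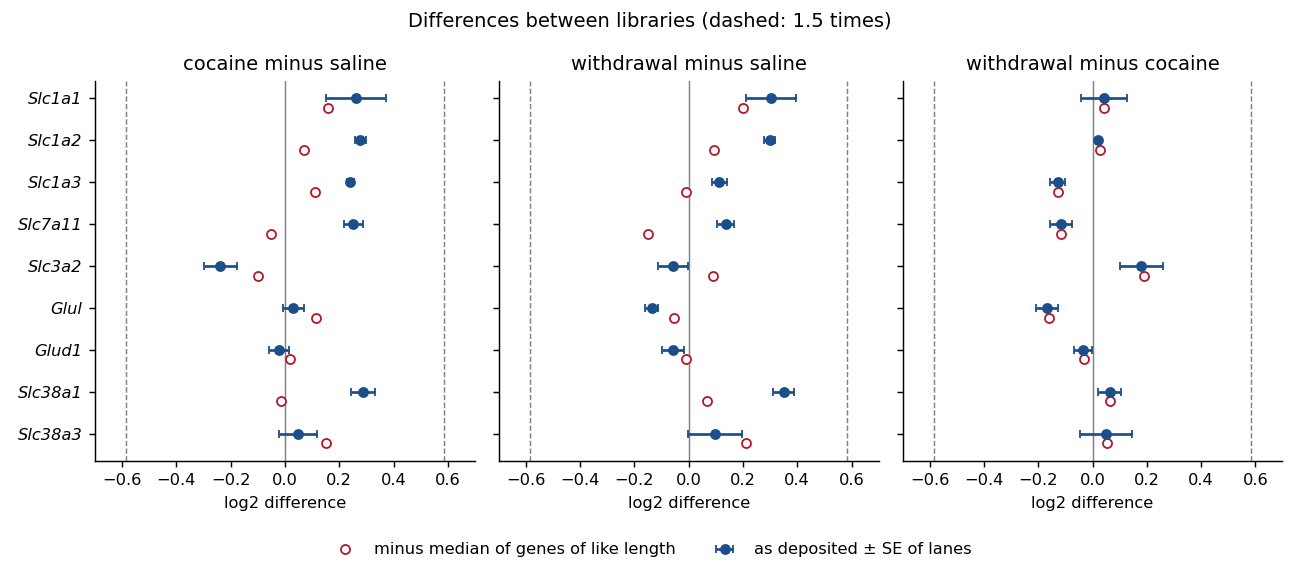
Log2 difference (horizontal axes) of each gene in the 3 comparisons; filled points are the values as deposited with the SE over lanes, open points have the median of tested genes of like length taken away, and dashed lines mark 1.5 times. No gene reached 1.5 times, and for cocaine against saline the open points of Slc7a11 and Slc38a1 lie just below 0.

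Gene length moved with these differences. Over all tested genes the difference correlated with gene model length (Spearman 0.464 across genes for cocaine against saline, 0.422 for withdrawal against saline and 0.013 for withdrawal against cocaine), and the 5 genes with lanes apart upward are the 5 longest, from 6170 bp for Slc1a1 to 14484 bp for Slc38a1. The other 4 run from 2944 bp for Slc3a2 to 4047 bp for Glud1. The part of length in the result was not tested, but each gene can be set beside genes of its own length class, 1 of 20 classes; those of the 9 genes hold 701 to 704 genes.

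In cocaine against saline, the class of Slc38a1 and Slc7a11 had a median of 0.30, so Slc38a1 lay at -0.016 and Slc7a11 at -0.052 from genes of like length. Slc1a2 lay 0.070 above a class median of 0.21, Slc1a3 0.11 above 0.13, and Slc1a1 0.16 above 0.10. The short Slc38a3 lay 0.15 above its class and Glul 0.12 above, while Slc3a2 lay at -0.10 from its class, whose median was -0.14. The median of the 9 genes was then 0.070, and after this centring the lanes were apart for 3 of them, Slc1a2, Slc1a3 and Glul, all higher. The share of all tested genes with lanes apart after this centring is not given here, so the count has no background beside it.

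In withdrawal against saline, centring by length left Slc1a1 at 0.20, Slc1a2 at 0.095, Slc38a1 at 0.066 and Slc38a3 at 0.21. It turned the sign of Slc7a11 to -0.15, of Slc1a3 to -0.0091 and of Slc3a2 to 0.091, and left Glul at -0.055. The lanes were then apart upward for 2 of the 9, Slc1a1 and Slc1a2, and downward for 2, Slc7a11 and Glul, again with no background share after centring. In withdrawal against cocaine no class median lay further from 0 than -0.0085 for the classes of the 9 genes, and the differences of Slc1a3 (-0.13), Slc7a11 (-0.11), Glul (-0.16) and Slc3a2 (0.19) stood nearly as deposited.

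**Figure D3:**
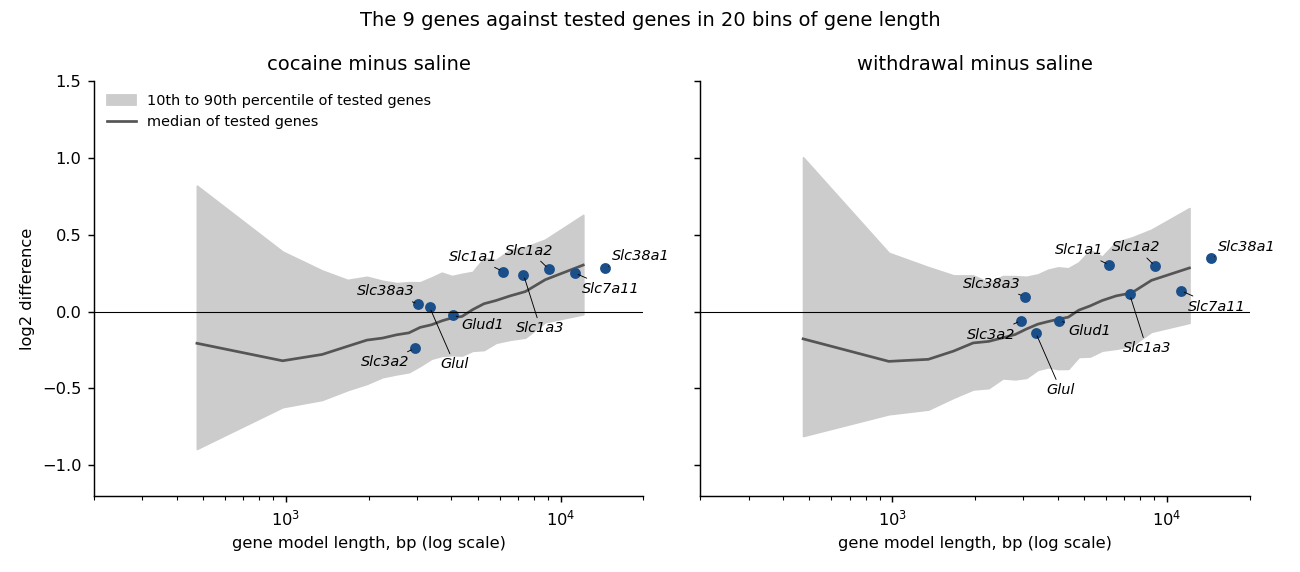
Log2 difference (vertical axis) against gene model length in bp (log axis) for cocaine minus saline and withdrawal minus saline; the line and band are the median and the 10th to 90th percentile of tested genes in 20 length classes, and points are the 9 genes. The medians lie below 0 for short genes and above 0 for long ones, and Slc7a11 and Slc38a1, at 11245 and 14484 bp, sit at the long end.

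As deposited, markers of astrocytes, the cells that hold most Slc1a2, Slc1a3, Glul and Slc38a3, were mostly lower where Slc1a2 and Slc1a3 were higher. The summed level of 18 astrocyte markers was 1198 to 1231 RPKM over the withdrawal lanes, 1305 to 1323 RPKM over the cocaine lanes and 1420 to 1440 RPKM over the saline lanes, with no marker at 0. Aldoc and Ntsr2, the most abundant, differed by -0.23 and 0.0020 in cocaine against saline and by -0.37 and -0.073 in withdrawal against saline (log2). In cocaine against saline 12 of 18 markers lay lower and 0 were called, with a median of -0.15. In withdrawal against saline 13 of 18 lay lower with a median of -0.22, and 2 were called lower, beside 3.37% of all tested genes, the calcium-binding protein S100b (-0.67 ± 0.053) and the claudin Cldn10 (-0.76 ± 0.063). Against these, Slc1a2 stood at 0.28 and 0.30 as deposited. Slc4a4, a bicarbonate transporter (0.52 and 0.51), and the water channel Aqp4 (0.37 and 0.38) were the markers that lay above it. After centring by length the marker medians were -0.054 and -0.16, Slc1a2 stood at 0.070 and 0.095, and Slc1a3 at 0.11 and -0.0091. The part of astrocyte content in the values of the 9 genes was not tested.

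**Figure D4:**
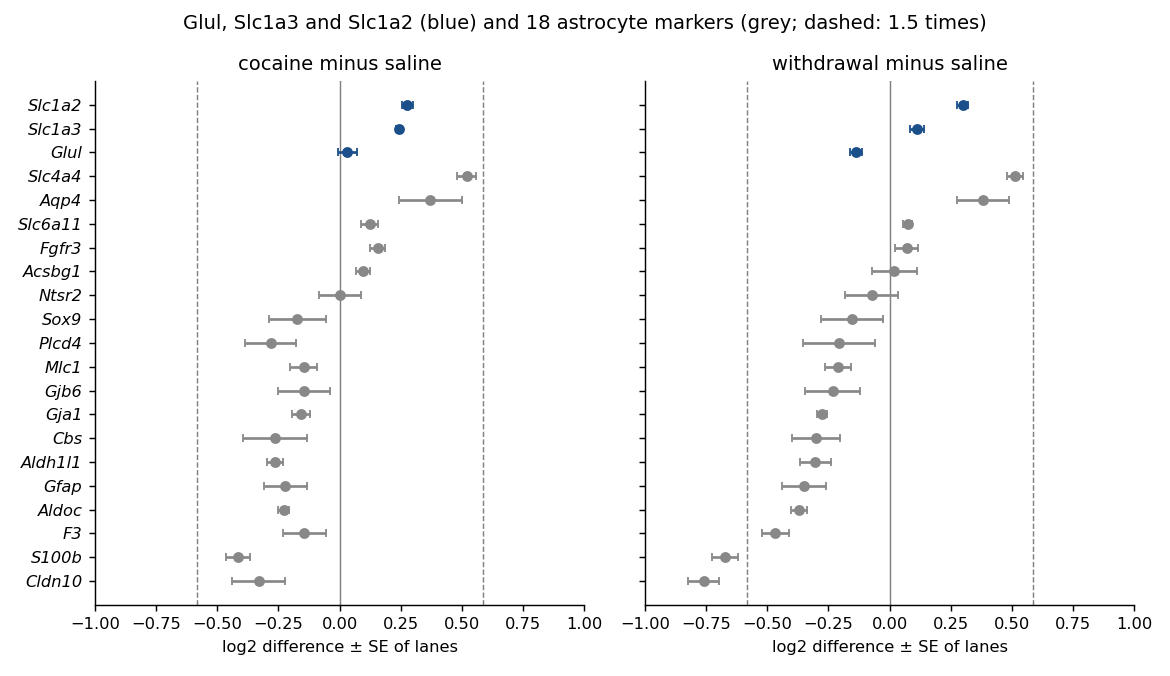
Log2 difference ± SE over lanes (horizontal axes) of Slc1a2, Slc1a3 and Glul (blue) and of 18 astrocyte markers (grey) in cocaine minus saline and withdrawal minus saline; dashed lines mark 1.5 times. Slc1a2 lies right of 0 in both panels, at 0.28 and 0.30, while most markers lie left of 0.

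Endothelial markers, from vessel cells that express Slc7a5 and Slc38a5, stood higher in the drug libraries, with the 11 genes summing to 97.9 to 108 RPKM over withdrawal lanes, 88.8 to 96.2 RPKM over cocaine lanes and 70.1 to 74.1 RPKM over saline lanes. Their median was 0.45 for cocaine against saline, with 3 of 11 called higher beside 2.93% of all tested genes, and 0.63 for withdrawal against saline, with 6 of 11 called higher beside 3.96% of all tested genes. Sums for the 12 medium spiny neuron genes were 1804 to 1814, 1493 to 1583 and 2041 to 2140 RPKM in withdrawal, cocaine and saline lanes. Oligodendrocyte sums were 1845 to 1857, 1935 to 1973 and 2035 to 2048 RPKM, microglia sums 169 to 174, 177 to 186 and 192 to 211 RPKM, cortical projection neuron sums 17.1 to 17.9, 19.5 to 23.1 and 32.8 to 35.0 RPKM, and choroid plexus sums 8.16 to 11.3, 14.4 to 17.96 and 8.31 to 13.6 RPKM, in the same order of libraries. Sums follow the most abundant genes of a list. Median log2 differences for cocaine and withdrawal against saline were -0.26 and -0.014 for medium spiny neuron genes (10 and 7 of 12 lower). They were 0.011 and -0.14 for oligodendrocyte genes (5 and 8 of 10 lower), and -0.10 and -0.17 for microglia genes (8 of 10 lower in each). After centring by length they were -0.19 and 0.072, 0.027 and -0.040, and 0.034 and 0.014, in that order of lists. The part of these cell types in the levels of the 9 genes was not tested.

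Around the 9 genes, a list of 42 other genes of glutamate and glutamine handling was examined, of which 39 passed the filter. For cocaine against saline 0 of the 39 were called higher and 1 lower, beside 2.93% and 2.41% of all tested genes, with a median of -0.041. For withdrawal against saline 0 were called higher and 1 lower, beside 3.96% and 3.37% of all tested genes, with a median of -0.11. These counts are near the background. The called gene was in both cases Slc17a7, which encodes VGLUT1, the vesicular glutamate transporter of cortical and other forebrain projection neurons. It read 3.29, 4.34 and 4.26 RPKM in withdrawal, 5.83, 5.01 and 5.76 RPKM in cocaine, and 19.4, 18.2 and 17.4 RPKM in saline. Saline lanes all stood far above the rest, and Slc17a7 fell by 1.64 ± 0.078 in cocaine and by 2.08 ± 0.12 in withdrawal on the log2 scale. The cortical sum given above includes Slc17a7 itself; Nptx1, the most abundant of the other cortical markers, averaged 10.6 RPKM in withdrawal, 11.8 RPKM in cocaine and 10.5 RPKM in saline. Slc17a7 and Nptx1 are 2 of the 3 cortical markers that passed the filter, so the medians and signs of this list include Slc17a7. The median log2 difference of the 3 was -0.39 for withdrawal against saline, with 2 negative (1 of them Slc17a7) and 1 positive. It was 0.036 for cocaine against saline, with 1 negative (Slc17a7) and 2 positive. In both comparisons the median was the value of the third marker. The part of cortical tissue in this result was not tested.

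For withdrawal against cocaine 0 genes of the list were called higher and 1 lower, Slc17a6, beside 0.47% and 0.548% of all tested genes, with a median of -0.050. Slc17a6 encodes VGLUT2, the vesicular transporter of thalamic and other subcortical inputs. It read 5.47, 6.70 and 7.07 RPKM in withdrawal, 8.90, 9.59 and 11.1 RPKM in cocaine, and 9.70, 9.61 and 9.05 RPKM in saline. Withdrawal lanes lay below all others. The difference of -0.59 ± 0.14 sat at the limit of 1.5 times, 0.58 on the log2 scale, and the call was lost without withdrawal lane 1 (-0.48), without cocaine lane 3 (-0.50), with a pseudocount of 1 (-0.55) and under each other scaling. In the same comparison Slc17a7 had -0.44 ± 0.13 and Slc17a8, the vesicular transporter VGLUT3, had -0.27 ± 0.29.

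Among the glutamine carriers of the list, 6 of 7 passed the filter and none was called. Slc6a17, a vesicular carrier of neutral amino acids in neurons, stood at 58.4, 57.1 and 56.7 RPKM in withdrawal, 55.1, 52.7 and 55.3 RPKM in cocaine, and 47.6, 48.6 and 46.3 RPKM in saline. Its lanes lay above those of saline, with differences of 0.27 ± 0.024 in withdrawal and 0.19 ± 0.030 in cocaine. Slc38a5, the system N carrier SNAT5, was low and varied between lanes, with means of 1.74 ± 0.87 RPKM in withdrawal, 1.63 ± 0.96 RPKM in cocaine and 1.12 ± 0.21 RPKM in saline (SD, 3 lanes), so that differences of 0.41 ± 0.32 and 0.31 ± 0.37 against saline had overlapping lanes. Of the other SLC1 transporters 3 of 4 passed, with none called and no difference against saline beyond -0.27.

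All 11 genes of glutamate metabolism passed, and none was called. Gls2, the liver-type glutaminase that makes glutamate from glutamine, had the largest differences against saline in this group, with 8.59, 6.72 and 8.74 RPKM in withdrawal, 9.38, 9.001 and 7.97 RPKM in cocaine, and 11.1, 12.4 and 11.8 RPKM in saline. All withdrawal and cocaine lanes lay below the saline lanes, with differences of -0.54 ± 0.12 in withdrawal and -0.41 ± 0.080 in cocaine. Pcx, the pyruvate carboxylase by which astrocytes make new glutamate carbon, differed by 0.10 ± 0.083 in withdrawal against cocaine, with lanes overlapping. Against saline it differed by 0.22 ± 0.095 in withdrawal, with lanes apart, and by 0.12 ± 0.065 in cocaine, with lanes overlapping.

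Cystine that Slc7a11 brings in serves glutathione synthesis, and all 9 genes of the glutathione group passed with none called. In cocaine against saline all 9 had negative differences as deposited, from -0.47 to -0.011 with a median of -0.18. The signs near 0 depended on the scaling: Gclc lay at 0.044 and Ggt7 at 0.035 after centring by gene length, Gclc at 0.0058 and Gclm at 0.036 after median centring, and Gclc, Gclm and Ggt7 at 0.028, 0.058 and 0.0033 after scaling to the 75th percentile. In withdrawal against saline their range was -0.51 to 0.030. Chac1, which breaks glutathione down, read 4.74, 2.30 and 2.86 RPKM in withdrawal, 3.97, 2.49 and 3.49 RPKM in cocaine, and 4.01, 5.28 and 4.94 RPKM in saline. Its cocaine lanes lay below the saline lanes (-0.47 ± 0.20), and its withdrawal lanes overlapped them (-0.51 ± 0.29). Glutathione reductase Gsr and glutathione synthetase Gss had the highest values of the list in withdrawal against cocaine, 0.15 ± 0.15 and 0.12 ± 0.10, with lanes overlapping. The 3 transporter partners, which include the potassium channel Kcnj10 of astrocytes, had none called and ranged from -0.20 to 0.17 in cocaine against saline.

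**Figure D5:**
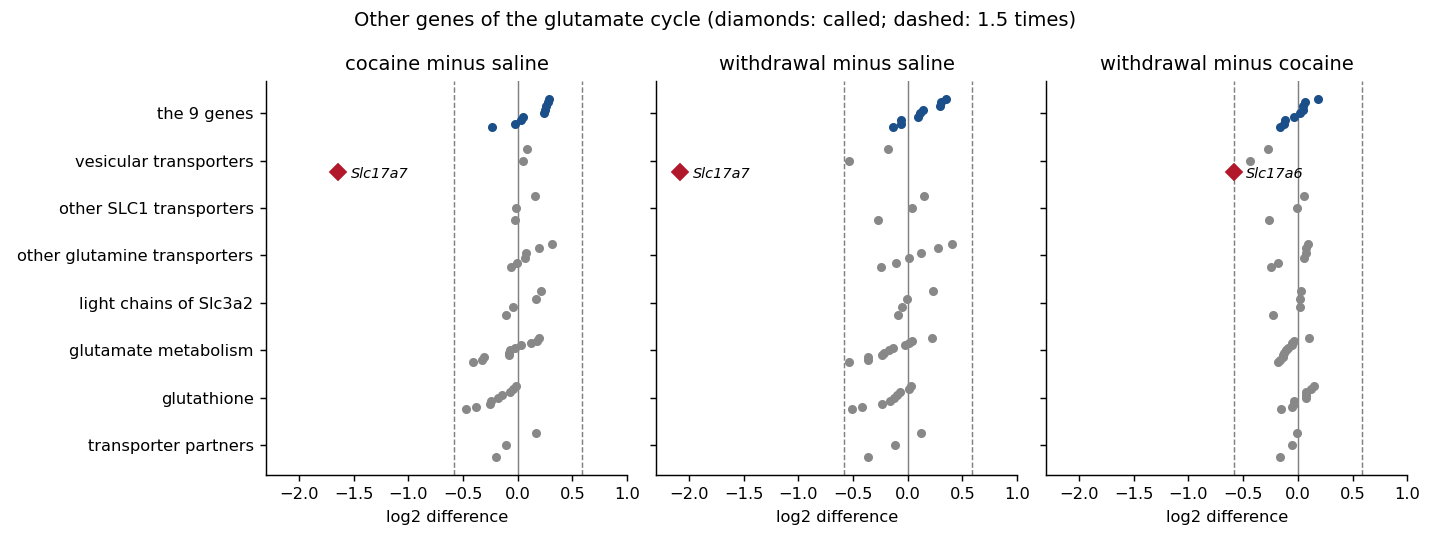
Log2 differences (horizontal axes) of the 9 genes (blue, top row) and of the 39 tested genes of glutamate and glutamine handling by group (grey, with called genes as red diamonds) in the 3 comparisons; dashed lines mark 1.5 times. The called genes are Slc17a7, at -1.64 and -2.08 against saline, and Slc17a6, at -0.59 in withdrawal minus cocaine.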

How the data were processed

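Poly(A) RNA of 3 pooled libraries (withdrawal, cocaine, saline; 8 mice each) was copied with random primers and run in 3 lanes each, 37 cycles per end with inserts near 200 bp, per the labels' protocols; groups and lane numbers came from the sample titles. The authors deposited RPKM per lane and per library with lane totals, per the file headers. The submitters' processing notes name Bowtie 0.12.7 and mm9; for the read counter and annotation, nothing is given in the sources used here. RPKM values of the lane files and of the series table did not differ in any value, and library values equalled depth-weighted lane means.

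The 9 genes and all lists were chosen with earlier results of these data known. Values were averaged as log2(RPKM + 0.5) over lanes; the filter was a mean of 1 RPKM over 9 lanes and the limit 1.5 times with no overlap of lanes. Lanes are technical, so count models and p-values were not used; a size rule checked on simulated data stands in their place. Between lanes, log2 values had a median SD of 0.130 in withdrawal, 0.119 in cocaine and 0.114 in saline. Gene model lengths were recovered from the RPKM, as the smallest length giving whole multiples of 1/37 of a read; 29.5% of 12595 tested genes came within 1% of the exon union of GENCODE (GRCm38), another annotation, and 14 tested genes had their length multiplied by 37. Promoters came from RefSeq. From the list of 42 genes, called genes and the 3 largest differences in each direction per comparison are named, and the 2 most abundant markers of each list; some items are not reported here. The astrocyte markers other than Aldoc and Ntsr2, and genes sharing sequence with the 9 were named after their values were seen. Analyses used Python 3.11.15, numpy 2.4.6 and pandas 2.3.3. Alternatives were pseudocounts of 0.1 and 1, filters of 5 RPKM or none, limits of 25% and 2 times, no lane condition, a lane-number block, centring on the median or within 20 length classes, scaling to the 75th percentile, library values, and each lane left out. Counts of genes by lane overlap alone, and their background among deeply read genes, were added after seeing the data.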

Additional observations from a re-analysis of the deposited data

How the results depend on the processing

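Of 324 recomputed log2 differences of the 9 genes, 288 stayed within the SD between lanes, and 13 changed sign. Centring by length turned Slc7a11 to -0.052 (cocaine against saline) and -0.15 (withdrawal against saline), Slc38a1 to -0.016 (cocaine against saline), Slc1a3 to -0.0091 and Slc3a2 to 0.091 (withdrawal against saline), and Glud1 to 0.018 (cocaine against saline). Scaling to the 75th percentile turned Glud1 to 0.049 and 0.016 (cocaine and withdrawal against saline) and Slc3a2 to 0.015 (withdrawal against saline). In cocaine against saline Glud1 also changed sign with median centring (0.025) and without saline lane 1 (0.010); so did Slc1a1 without cocaine lane 3 (-0.031) and Slc38a3 without withdrawal lane 3 (-0.033) in withdrawal against cocaine. The causes were not tested.

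The count of called genes among the 9 stayed at 0 in every setting except a limit of 25%, which called 1, Slc38a1 in withdrawal against saline. Centring by length left 3 of the 9 with lanes apart in cocaine against saline, where 6 stood as deposited, and 4 in withdrawal against saline (2 higher and 2 lower, where 5 higher and 1 lower stood as deposited). These counts after centring have no share of all tested genes beside them. With the 42-gene list, a limit of 25% called 5 genes in cocaine against saline, 7 in withdrawal against saline and 2 in withdrawal against cocaine. At that limit 3077 of the 14051 tested genes were called in cocaine against saline, 1374 higher and 1703 lower. No such share is given here for the comparisons of withdrawal, so their counts, and that of Slc38a1, have no background beside them. In withdrawal against cocaine 0 genes of the list were called with a pseudocount of 1 or a limit of 2 times. The same held with median centring, scaling to the 75th percentile, centring by length or the authors' library values. Leaving out each lane gave 1 to 2 called genes in cocaine against saline (2 without cocaine lane 1, which adds Chac1), 1 to 4 in withdrawal against saline (3 without withdrawal lane 1, adding Gls2 and Chac1; 4 without withdrawal lane 3, adding Gls2, Slc17a6 and, upward, Slc38a5; 2 without saline lane 1, adding Chac1) and 0 to 1 in withdrawal against cocaine. Pairing lanes by number as a replicate block gave 0 called genes among the 9 in all 3 comparisons and lanes apart for 6, 7 and 6 of them. Lanes count as apart there when the differences of same-numbered lanes share a sign, a looser condition than no overlap. No share of all tested genes under it is given here, and the shares given above for lane overlap do not apply. Deviations of same-numbered lanes correlated from -0.051 to 0.076. Such values show no pairing by number and cannot exclude it. With 1 pooled library per group, variation between mice was not measured.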

Other observations

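Over the 9 lanes of the 3 libraries, the log2 levels most like Slc1a2 were those of Bmpr2, a bone morphogenetic protein receptor (Pearson 0.997), of Slc7a14 (0.996) and of the calcium pump Atp2b4 (0.995). The lanes are 3 runs of 3 libraries, so these values mostly reflect library means, and they are given as a description. Bmpr2 averaged 15.2 RPKM in withdrawal, 14.6 RPKM in cocaine and 3.82 RPKM in saline, a wider gap than that of Slc1a2. Slc7a14 averaged 17.5, 17.0 and 12.1 RPKM, and Atp2b4 44.8, 42.7 and 24.9 RPKM, in the same order of libraries.

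For Slc38a1, which had the widest range of library means of the 9 genes (0.35 on the log2 scale), the likest were the lipid transporter Abca3 (0.995), the predicted gene Gm15800 (0.988) and the long non-coding RNA Miat (0.987). Abca3 averaged 21.7 RPKM in withdrawal, 20.0 RPKM in cocaine and 15.2 RPKM in saline.

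Among the most abundant markers of the remaining lists were Mbp (oligodendrocytes), Nptx1 and Slc17a7 (cortical projection neurons), Cldn5 and Ly6c1 (endothelium), C1qb (microglia), and Clic6 and Ttr (choroid plexus). Cldn5 averaged 44.4 RPKM in withdrawal, 35.9 RPKM in cocaine and 28.4 RPKM in saline, and Ly6c1 10.3, 12.9 and 10.2 RPKM in the same order. Ttr averaged 0.949 RPKM in withdrawal, 7.51 RPKM in cocaine and 2.37 RPKM in saline. Clic6, the more abundant of the 2 choroid plexus genes, averaged 5.66, 4.94 and 5.31 RPKM and was lowest in cocaine.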
